A study of Mus musculus with 8 samples.

Results

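The SR proteins and the heterogeneous nuclear ribonucleoproteins (hnRNPs) are the 2 large families of RNA-binding proteins that steer alternative splicing, and their RNA levels were compared between sorted bone marrow cells, which the study calls leukemic stem cells (LSCs), of untreated mice with chronic myeloid leukemia (CML) and of CML mice given imatinib. All genes of the count table with a symbol that starts with Srsf and a digit or with Hnrnp were taken, together with Ptbp1, Ptbp2 and Ptbp3, which gave 35 of the 15576 genes: 11 Srsf genes, 21 Hnrnp genes and 3 Ptbp genes. The mice were on a C57BL/6 background and carried both the BCR-ABL and the SCL-tTA transgenes, so that in both groups BCR-ABL was driven in SCL-expressing stem and progenitor cells once tetracycline was withdrawn. 4 bulk RNA-seq libraries came from untreated CML mice (CML 1, 2, 3 and 5, as the table's columns are numbered, although no label carries the number 5) and 4 from CML mice that had received 400 mg/kg imatinib, a tyrosine kinase inhibitor, on alternate days by gavage for 4 weeks (CML-TKI 1 to 4). The study's legend for its LSC RNA-seq gives a lower imatinib dose than the labels. The methods give an age for transplant recipients alone, and neither they nor the labels say whether a library was 1 animal or a pool, or say whether these animals were primary or transplanted. The p-values given here therefore measure the spread between libraries, which may be technical.

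Both families act on the same pre-mRNAs. SR proteins carry RNA recognition motifs and a tail rich in arginine and serine, bind mostly exonic enhancers and help the U1 and U2 small nuclear ribonucleoproteins (snRNPs) to define an exon, and the SRPK and CLK kinases control them by phosphorylating that tail. hnRNPs coat nascent RNA and often act as silencers of exons. The pyruvate kinase gene Pkm is the textbook case in metabolism. PTBP1, hnRNP A1 and hnRNP A2/B1 bind around the upstream of 2 mutually exclusive exons and repress it, while SRSF3 favours the downstream exon, and the choice makes PKM1 or PKM2. In the blood system SRSF2 is known as a recurrent mutation target in myeloid neoplasms, and hnRNP LL as a regulator of CD45 splicing in lymphocytes.

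The 2 Pkm exons that this choice is between are shown because the counts analysed here are summed over the gene and cannot tell them apart. They were read from GENCODE M21 transcripts of build GRCm38 (mm10), on the plus strand of chromosome 9, with the upstream exon at chr9:59675029-59675195 and the downstream exon at chr9:59675568-59675734. Both are coding exons of 167 bases, each stood at position 9 of the exons of its transcript, and capitals mark the 64 positions at which they differ:
Pkm upstream exon, PKM1: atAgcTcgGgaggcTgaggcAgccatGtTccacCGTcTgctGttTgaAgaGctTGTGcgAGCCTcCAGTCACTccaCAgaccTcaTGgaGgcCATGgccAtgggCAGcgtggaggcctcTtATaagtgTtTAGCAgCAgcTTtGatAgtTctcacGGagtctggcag
Pkm downstream exon, PKM2: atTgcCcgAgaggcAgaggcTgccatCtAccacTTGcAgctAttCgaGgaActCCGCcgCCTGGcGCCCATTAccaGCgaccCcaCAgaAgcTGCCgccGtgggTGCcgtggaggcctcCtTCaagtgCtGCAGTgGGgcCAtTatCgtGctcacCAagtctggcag
The other 103 positions, or 61.7%, were identical. The results below are thus on the abundance of the splicing regulators and of Pkm as a whole, and say nothing of which exon was used.

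The libraries differed in depth and in the marker genes of other cells. Totals ranged from 4939639 to 8620097 estimated counts in CML and from 1041562 to 5104276 in CML-TKI, so that 3 counts, taken as the floor, corresponded to between 0.409 and 3.29 CPM, the counts scaled to the normalized library size, and these floors cover counting error only. All values given as CPM are after TMM normalization. The study calls the sorted cells of both groups LSCs, but the gate in the labels is CD150-negative and CD48-positive, the reverse of the LSC definition in the study's figure legends. Slamf1, the CD150 gene that the labelled gate should leave low, had 32.4 ± 3.74 CPM (SD, n = 4) in CML and 3.33 ± 2.74 CPM (SD, n = 4) in CML-TKI, and Cd48 had 5.05 ± 1.24 and 103.3 ± 56.9 CPM (SD, n = 4 each). Summed over each marker list, 11 granulocyte genes ran from 151.5 to 254.5 CPM in CML and from 1440 to 8401 CPM in CML-TKI (10 of 11 higher by edgeR), 6 macrophage and monocyte genes from 13.9 to 27.3 and from 807 to 4314 CPM (6 of 6 higher), and 10 HSC genes from 1151 to 1493 and from 58.3 to 442.9 CPM (3 of 10 lower). CML-TKI 1 was the CML-TKI library with the least granulocyte and the most HSC signal. CML-TKI 3, the shallowest library, held 31620 CPM of 7 erythroid genes against at most 500.5 CPM in the others, 287.1 CPM of 6 B cell genes against at most 23.4, and 116.2 CPM of 6 T cell genes against at most 36.9. The sum of 7 megakaryocyte genes ran from 1529 to 1864 CPM in CML and from 72.2 to 601.5 CPM in CML-TKI (3 of 7 lower), and that of 5 endothelial genes from 156.5 to 288.1 and from 56.2 to 120.6 CPM (2 of 5 lower). The markers of the CML-TKI libraries thus go against the LSC name, and the groups are called CML and CML-TKI here. These differences move with the groups compared below, their part in the results was not tested, and in bulk RNA fewer cells of a type and less RNA per cell cannot be told apart.

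Together the 35 splicing regulators summed to 6543 to 7128 CPM in CML and to 6026 to 9117 CPM in CML-TKI. The groups overlapped, and CML-TKI 2 was the highest. Per kilobase of the principal GENCODE transcript, the order of the mean CML levels was led by Hnrnpf, which encodes a protein that binds runs of guanines (237 CPM per kb), Srsf2 (184), Ptbp3 (178), Hnrnpl, whose protein binds CA repeats (163), and Hnrnpk, whose protein binds cytosine-rich RNA (157). In CML-TKI the mean levels of these genes were 238, 204, 279, 133 and 137 CPM per kb, which put Ptbp3 first. The CML ranges of neighbours in this order overlapped. At the low end of the mean CML levels per length were Ptbp2, the neuronal PTB paralog (8.7 CPM per kb), the processed pseudogene Hnrnpa1l2-ps2 (7.17), Hnrnpr (5.83, over an annotated transcript of 21.5 kb), Hnrnph3 (2.48) and Srsf12 (0.216), and of these Hnrnph3 lay below Hnrnpr, and Srsf12 below Hnrnph3, by more than their CML ranges. Srsf12 had 1, 3, 8 and 2 counts in the CML libraries and 2, 0, 0 and 0 in the CML-TKI libraries. It was removed by the filter on low counts and was the 1 gene of the 35 that was not tested.

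**Figure D1:**
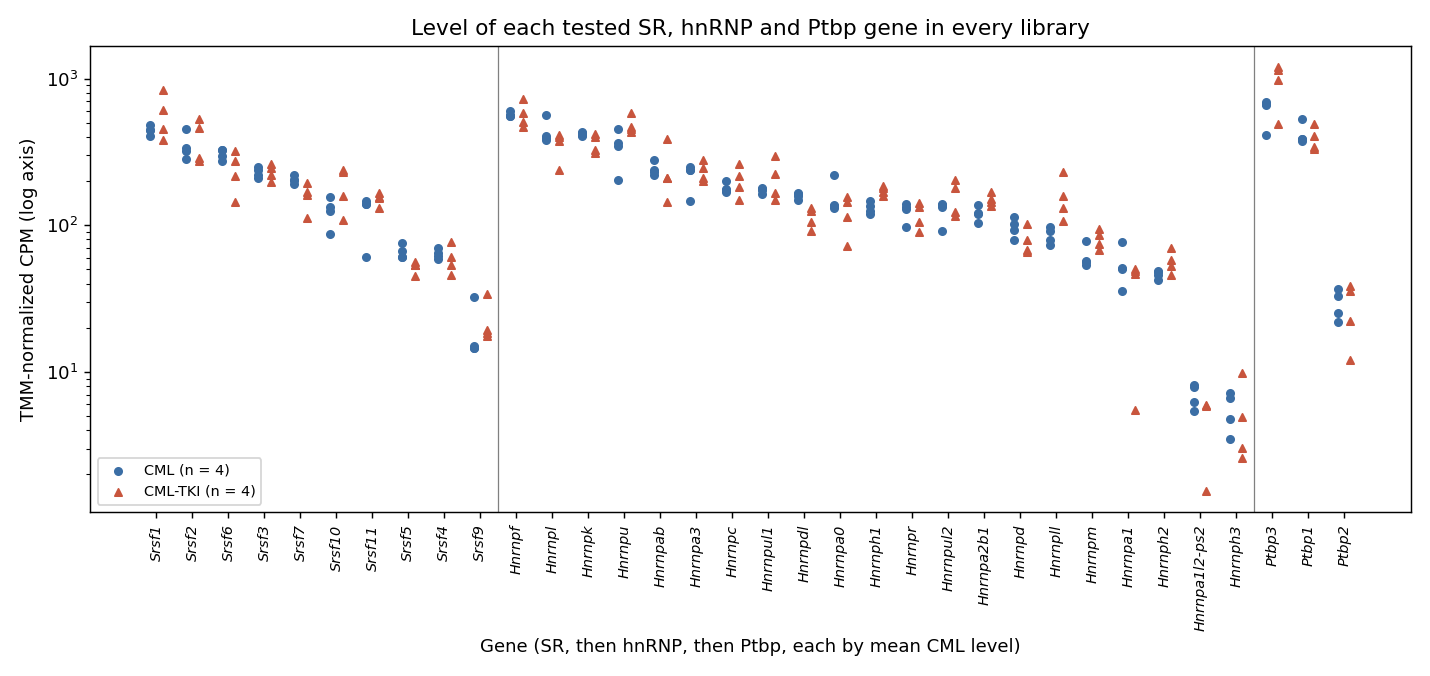
TMM-normalized CPM (log axis) of each of the 34 tested genes in the 4 CML libraries (circles) and the 4 CML-TKI libraries (triangles), ordered by family and mean CML level; the value of 0 of Hnrnpa1l2-ps2 in CML-TKI 3 cannot be drawn on this axis. The groups overlap for 30 of the genes, and Hnrnpa1 in CML-TKI 3 lies at 5.48 CPM, far below its other values.

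Between CML-TKI and CML, 0 of the 34 tested genes had an adjusted p under 0.05 in edgeR's quasi-likelihood test, whereas 10.2% of all 11937 genes tested did (6.29% upward and 3.93% downward). At an unadjusted p under 0.05 there were 3 of the 34 (8.82%), Hnrnpll and Hnrnph1 upward and Hnrnpdl downward, beside 25.7% of all genes (13.7% upward and 12.1% downward). With DESeq2 2 of the 34 passed, Hnrnpll upward and Hnrnpdl downward, beside 18.1% of all genes, and with limma-voom and sample quality weights 1 passed, Hnrnpll, beside 21.5%. The fitted log2 fold changes of the 34 ran from -0.92 to 0.88 with a median of 0.009, 18 of them above 0 and 16 below (50% of all genes each), and 0 of them reached 2-fold, which 25.8% of all genes did. The median size of the change was 0.30 on the log2 scale for these genes and 0.52 for all genes. Among the 2908 genes at or above the lower quartile of abundance of the 34, 15% were called and the median size of the change was 0.41. The 95% interval of the log2 fold change lay within 2-fold in either direction for 25 of the 34 (73.5%). The share of all genes was 24.1%, but they were not matched to the 34 for abundance, on which interval width also depends. For the other 9, which were Hnrnpa0, Hnrnpa1, Hnrnpa1l2-ps2, Hnrnph3, Hnrnpll, Hnrnpu, Ptbp3, Srsf9 and Srsf10, a 2-fold change in at least 1 direction lay within the interval. Leaving out CML-TKI 1 called 2 of the 34, Hnrnpll and Ptbp3, and raised the share of all genes called to 20.6%.

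**Figure D2:**
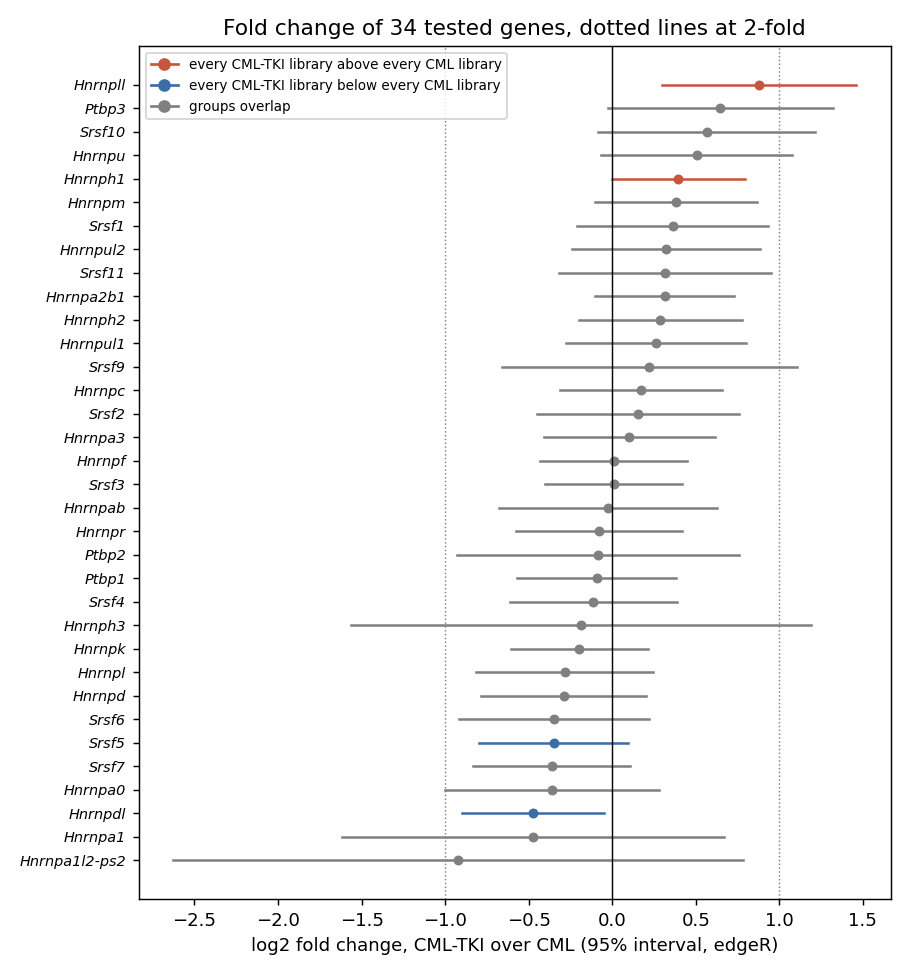
log2 fold change (CML-TKI over CML) of each of the 34 tested genes with its 95% interval from edgeR, coloured where the libraries of the groups do not overlap. The fold changes run from -0.92 to 0.88, all within the dotted lines at 2-fold, and 25 of the intervals stay within them too.

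Without any overlap between the groups, 2 of the 34 genes had their whole CML-TKI range above that of CML (10.3% of all genes did) and 2 had it below (13.1% of all genes), together 11.8% beside 23.4%. All 4 are described here, and 1 of them is an SR gene. Hnrnpll, on chromosome 17 from 80029487 to 80062334, had 78.9, 97.5, 73.05 and 91.2 CPM in CML 1, 2, 3 and 5 and 107.5, 229.9, 157.8 and 132.2 CPM in CML-TKI 1 to 4. Its lowest CML-TKI value was that of CML-TKI 1, just above the highest CML value, and its log2 fold change was 0.88 (standard error 0.26, 95% interval 0.30 to 1.46, adjusted p = 0.06 by edgeR). Across the fits that left out 1 library each, it stayed between 0.63 and 1.02 with an adjusted p of 0.0162, without CML-TKI 1, to 0.177. Hnrnph1, on chromosome 11 from 50376990 to 50386528, encodes a close relative of hnRNP F. It had 125.3, 145.9, 135.3 and 119.1 CPM in the CML libraries and 168.7, 180.7, 184.1 and 158.4 CPM in the CML-TKI libraries. Its CML-TKI libraries were tightly grouped, and the log2 fold change was 0.40 (standard error 0.18, adjusted p = 0.194 by edgeR).

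The 2 genes that were lower in every CML-TKI library were Hnrnpdl and Srsf5. Hnrnpdl, on chromosome 5 from 100033577 to 100039664, encodes a paralog of the AU-rich element binding protein AUF1 (Hnrnpd). It had 158.3, 162.5, 165.4 and 148.5 CPM in the CML libraries and 105.98, 131.4, 92.1 and 125.7 CPM in the CML-TKI libraries. The CML libraries lay within a narrow band above all 4 CML-TKI libraries, and the log2 fold change was -0.48 (standard error 0.19, 95% interval -0.90 to -0.051, adjusted p = 0.147 by edgeR). Hnrnpd itself lies 54.6 kb away on the same chromosome and had a log2 fold change of -0.29 (adjusted p = 0.451), with groups that overlapped. Srsf5, on chromosome 12 from 80945504 to 80950507, encodes SRp40. It had 60.5, 61.2, 67.06 and 75.3 CPM in the CML libraries and 45.01, 53.3, 55.9 and 53.3 CPM in the CML-TKI libraries. A gap of only a few CPM separated the groups. Its log2 fold change was -0.35 (standard error 0.20, adjusted p = 0.308 by edgeR).

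The other 9 tested SR genes overlapped between the groups. Srsf3, on chromosome 17 from 29032628 to 29043373, the SR gene linked to the Pkm exon choice, had 210.8, 251.1, 219.7 and 240.04 CPM in the CML libraries and 197.2, 263.7, 219.2 and 246.6 CPM in the CML-TKI libraries. The means differed by far less than the spread within either group (230.4 ± 18.4 and 231.7 ± 29.4 CPM, SD, n = 4 each), and the 95% interval of the log2 fold change ran from -0.40 to 0.42 (adjusted p = 0.984 by edgeR). Srsf2 ranged from 284.3 to 453.7 CPM in CML and from 272.9 to 533.7 CPM in CML-TKI (log2 fold change 0.15, adjusted p = 0.774). Srsf1, the founding member of the family, ranged from 404.7 to 482.9 CPM in CML and from 383.6 to 839.2 CPM in CML-TKI (log2 fold change 0.36, adjusted p = 0.414). Srsf10, whose protein represses splicing once dephosphorylated, had the most positive log2 fold change of the SR genes, 0.565 (adjusted p = 0.257), with values from 87.7 to 154.8 CPM in CML and from 108.5 to 239.1 CPM in CML-TKI. The remaining 5 (Srsf4, Srsf6, Srsf7, Srsf9 and Srsf11) had log2 fold changes from -0.36 to 0.32 and adjusted p of at least 0.317.

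Of the hnRNPs tied to Pkm, Hnrnpa2b1, on chromosome 6 from 51460932 to 51469894, had 103.4, 137.8, 118.7 and 121.4 CPM in the CML libraries and 144.5, 151.2, 168.8 and 135.02 CPM in the CML-TKI libraries. Only CML 2 and CML-TKI 4 kept the groups from separating, and the log2 fold change was 0.32 (standard error 0.19, 95% interval -0.10 to 0.73, adjusted p = 0.323 by edgeR). Hnrnpa1, on chromosome 15 from 103240432 to 103246692, had 35.7, 51.5, 77.1 and 50.5 CPM in CML 1, 2, 3 and 5 and 48.6, 46.2, 5.48 and 50.5 CPM in CML-TKI 1 to 4. CML-TKI 3 held 5 counts of Hnrnpa1 and was far lower than CML-TKI 1, 2 and 4, which fell inside the CML range. The log2 fold change was -0.48 with a wide interval, -1.62 to 0.67 (adjusted p = 0.609 by edgeR), and without CML-TKI 3 it was -0.14. The estimated counts of Hnrnpa1 and of its pseudogene Hnrnpa1l2-ps2 were more than 0.05 away from a whole number in 7 of the 8 libraries each. Whether reads were divided between them was not tested, and both estimates are uncertain. Hnrnpa1l2-ps2 ranged from 5.4 to 8.12 CPM in CML and from 0 to 5.98 CPM in CML-TKI, at or near the floor in the shallow libraries (log2 fold change -0.92, adjusted p = 0.492).

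Among the other hnRNP genes with high levels, Hnrnpf had 567.9 ± 20.5 CPM in CML and 571.5 ± 115.1 CPM in CML-TKI (SD, n = 4 each; 95% interval of the log2 fold change -0.43 to 0.45). Hnrnpk had 419.3 ± 11.5 and 365.8 ± 53.7 CPM (log2 fold change -0.20, adjusted p = 0.547 by edgeR). Hnrnpl had 435.5 ± 86.7 and 357.1 ± 80.1 CPM (log2 fold change -0.28, adjusted p = 0.495). Hnrnpu, which encodes the chromatin-associated scaffold protein SAF-A, had 349.04, 455.1, 362.1 and 203.2 CPM in the CML libraries and 453.6, 469.2, 435.1 and 584.3 CPM in the CML-TKI libraries. Its groups overlapped through CML 2, CML 5 was the lowest library, and the log2 fold change was 0.505 (adjusted p = 0.253 by edgeR). The remaining 10 Hnrnp genes had log2 fold changes from -0.36 to 0.38 and adjusted p of at least 0.307.

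The 3 Ptbp genes differed in how evenly they were expressed. Ptbp1, on chromosome 10 from 79854427 to 79864771, encodes the polypyrimidine tract-binding protein that silences the upstream Pkm exon. It had 384.99, 387.4, 375.9 and 527 CPM in CML 1, 2, 3 and 5 and 340.9, 492.1, 332.1 and 404.3 CPM in CML-TKI 1 to 4. The highest library was CML 5, the groups overlapped, and the log2 fold change was -0.093 (standard error 0.21, 95% interval -0.57 to 0.38, adjusted p = 0.828 by edgeR). Ptbp2, on chromosome 3 from 119718742 to 119784466, had 25.3, 37.1, 32.9 and 21.9 CPM in the CML libraries and 35.5, 38.7, 12.1 and 22.4 CPM in the CML-TKI libraries (log2 fold change -0.084, 95% interval -0.93 to 0.76, adjusted p = 0.918). The groups overlapped, with CML-TKI 3 lowest.

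Ptbp3, on chromosome 4 from 59471868 to 59549364, encodes the paralog first named regulator of differentiation (ROD1), which is known from hematopoietic cells. It had 689.2, 671.7, 661.9 and 410.8 CPM in CML 1, 2, 3 and 5 and 492.1, 1198, 1144 and 975.6 CPM in CML-TKI 1 to 4. CML-TKI 2, 3 and 4 lay above all CML libraries, CML-TKI 1 lay below CML 1 to 3, and CML 5 was the lowest of all. The log2 fold change was 0.65 (standard error 0.30, 95% interval -0.028 to 1.32, adjusted p = 0.213 by edgeR). Without CML-TKI 1 it was 0.86 with an adjusted p of 0.0271, and over the fits that left out 1 library each the adjusted p ran from 0.0271 to 0.383. As a share of the counts of the 3 Ptbp genes, without correction for length, Ptbp3 held 62.7%, 61.3%, 61.8% and 42.8% in CML 1, 2, 3 and 5 and 56.7%, 69.3%, 76.9% and 69.6% in CML-TKI 1 to 4. The ratio of Ptbp3 to Ptbp1 counts, a measure chosen after the values were seen, was between 1.73 and 1.79 in CML 1 to 3, 0.78 in CML 5, 1.44 in CML-TKI 1 and between 2.41 and 3.45 in CML-TKI 2 to 4 (exact two-sided permutation test of the log2 ratio, p = 0.114, where 0.0286 is the smallest that 70 relabelings allow).

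**Figure D3:**
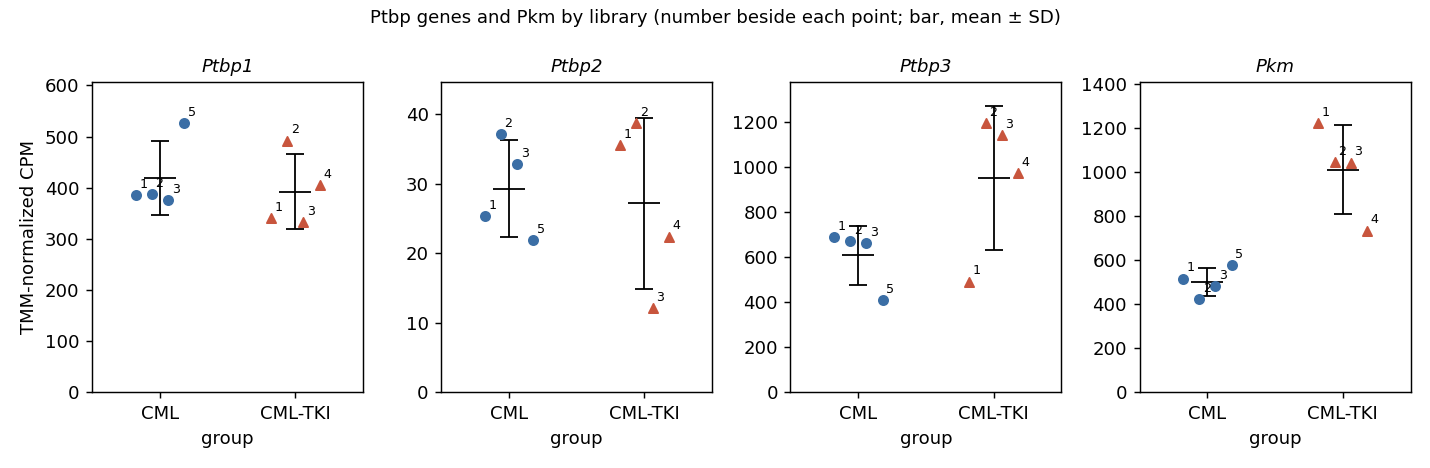
TMM-normalized CPM of Ptbp1, Ptbp2, Ptbp3 and Pkm in each library (points, with the library number), with the mean and SD of each group (n = 4). Pkm is higher in every CML-TKI library, while the groups overlap for the 3 Ptbp genes, with CML 5 highest for Ptbp1 and lowest for Ptbp3.

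Beside these regulators, total Pkm had 516.6, 423.9, 481.6 and 576.5 CPM in the CML libraries and 1224, 1044, 1043 and 733.9 CPM in the CML-TKI libraries. Every CML-TKI library was above every CML library, and the log2 fold change was 1.02 (standard error 0.22, adjusted p = 0.0163 by edgeR), and without CML 1, CML 2 or CML 3 the adjusted p was 0.0632, 0.0703 or 0.0664. With CML 1 to 3 summed to 1 library, the log2 fold change was 0.92 and the adjusted p 0.282. The 4 regulators that are usually discussed with Pkm splicing, Ptbp1, Hnrnpa1, Hnrnpa2b1 and Srsf3, had log2 fold changes of -0.093, -0.48, 0.32 and 0.008 in the fit of all 8 libraries. Myc, whose protein is known to raise the transcription of the 3 repressors in other cells, had 119.6, 106.4, 85.03 and 133.8 CPM in the CML libraries and 77.5, 71.6, 32.9 and 111.6 CPM in the CML-TKI libraries (log2 fold change -0.58, adjusted p = 0.301 by edgeR). Its groups overlapped through CML-TKI 4.

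The spread between libraries was uneven. The median coefficient of variation of the 34 genes was 15.1% among the CML libraries, 6.03% among CML 1 to 3 alone and 22.3% among the CML-TKI libraries. For all genes tested, which were not matched to the 34 for abundance, it was 22%, 10.4% and 43.6%. Within CML, CML 5 stood apart from the other 3 for 8 of the 34 genes. It was the highest library for Hnrnpa0, Hnrnpl, Ptbp1 and Srsf9 and the lowest for Hnrnpa3, Hnrnpul2, Ptbp3 and Srsf11. Srsf11 shows the size of this, with 147.2, 139.7 and 139.9 CPM in CML 1 to 3 and 60.4 CPM in CML 5. The single gene Rn45s held 38.3% of the total counts of CML 5. It held 20.2% to 23.1% in CML 1 to 3 and 9.23% to 22.5% in CML-TKI, and its part in these values was not tested. Within CML-TKI, CML-TKI 2 was the highest library for 22 of the 34 genes and CML-TKI 3 the lowest for 18 and CML-TKI 1 for 12. Without CML 5, 0 of the 34 genes were called and 5 did not overlap, beside 6.6% and 30.8% of all genes.

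The rest of the splicing machinery was read from 7 lists with 142 other genes, of which 133 were tested. Over these, 5 genes passed an adjusted p under 0.05 (3.76%, beside 10.2% of all genes), 1 upward and 4 downward, and 17 had an unadjusted p under 0.05 (12.8%, beside 25.7%). The core of the spliceosome held none of the 5. Of the 20 tested genes of the U2 snRNP and 3′ splice site, which include Sf3b1 and U2af1, 0 passed, with log2 fold changes from -0.496 to 0.60 and a median of 0.11. Among 13 Sm and LSm genes, which form the ring around snRNAs, the median log2 fold change was -0.18 and 0 passed. Among 26 genes of the tri-snRNP and catalytic spliceosome it was 0.11 and 0 passed, and among 9 genes of the U1 snRNP and 5′ splice site it was 0.33 and 0 passed. The 9 tested genes of the SR protein kinases and their importer, which include Clk1, Clk4 and Srpk1, had a median log2 fold change of 0.36, from -0.24 to 0.64, and 0 of them passed. At an unadjusted p under 0.05 these 5 lists held 0 genes, except for 3 in the catalytic list. Of the 133 tested genes of all 7 lists, DESeq2 called 12 and limma-voom 8. Of all 11937 genes tested they called 2157 (18.1%) and 2563 (21.5%).

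Among the 20 SR-related coactivators, 5 had an unadjusted p under 0.05, all upward (25%, beside 13.7% of all genes upward). Only 1 gene was called, also upward (5%, beside 6.29% of all genes upward). Luc7l3, on chromosome 11 from 94287890 to 94321988, encodes a U1-associated protein with an arginine and serine rich tail. It had 25.7, 38.02, 28.4 and 9.07 CPM in the CML libraries and 67.8, 53.9, 90.97 and 64.5 CPM in the CML-TKI libraries. All 4 CML-TKI libraries were higher, and the log2 fold change was 1.45 (standard error 0.40, adjusted p = 0.0485 by edgeR). The adjusted p was 0.128 without CML 1 and above 0.05 when any 1 library other than CML 5 and CML-TKI 1 was left out. Over all 19 alternatives the call held in 5, and the adjusted p was 0.0695 with total counts, 0.0596 with total counts without Rn45s, 0.0622 with no filter, 0.0573 with a mean of 10 counts in each group, 0.112 after thinning and 0.197 with CML 1 to 3 summed. 17 of the 20 coactivators had a log2 fold change above 0, with a median of 0.24, beside 50% of all genes with a median of 0. CML 5 was the lowest CML library for 17 of the 20, beside 4884 of all 11937 genes tested. Without it 11 of the 20 had a log2 fold change above 0 with a median of 0.066, beside a median of 0.005 for all genes. Son, which encodes a large nuclear speckle protein, had 1212, 1277 and 1261 CPM in CML 1 to 3, 383.8 CPM in CML 5 and from 1263 to 1494 CPM in CML-TKI.

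The 4 genes that fell stood among 36 tested genes of other alternative splicing regulators, or 11.1% called beside 10.2% of all genes (3.93% downward). Khdrbs3, on chromosome 15 from 68928420 to 69101211, encodes the SAM68 relative SLM2. It had 10.9, 12.9, 11.8 and 13.3 CPM in the CML libraries and 1.9, 1.55, 0 and 1.04 CPM in the CML-TKI libraries, which rested on 10, 5, 0 and 4 counts (log2 fold change -3.23, standard error 0.63, adjusted p = 0.0115 by edgeR). Raver2, on chromosome 4 from 101068983 to 101152370, encodes a cofactor that binds PTB proteins. It had 29.6, 27.4, 30.7 and 20.07 CPM in CML and 6.27, 0, 4.38 and 3.64 CPM in CML-TKI (log2 fold change -2.91, standard error 0.77, adjusted p = 0.042), while its paralog Raver1 had a log2 fold change of -0.10 (adjusted p = 0.856). Rbpms, on chromosome 8 from 33782643 to 33929863, had 57.2, 58.3, 65.5 and 66.1 CPM in CML and 21.1, 2.17, 16.4 and 4.42 CPM in CML-TKI (log2 fold change -2.515, adjusted p = 0.028).

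Cirbp, on chromosome 10 from 80165985 to 80172786, encodes a cold-inducible RNA-binding protein. It had 23.3, 18.5, 34.01 and 40.3 CPM in CML and 9.88, 2.48, 2.19 and 4.42 CPM in CML-TKI (log2 fold change -2.52, adjusted p = 0.0159 by edgeR), and the other cold-induced gene of the list, Rbm3, had a log2 fold change of 0.16 (adjusted p = 0.655). For each of these 4 genes every CML-TKI library lay below every CML library, and CML-TKI 1 was the highest CML-TKI library, as it was for the HSC markers, whose part in these differences was not tested. With 1 library left out, the adjusted p rose above 0.05 for Khdrbs3 without CML 1 or CML 2 (up to 0.0546), for Cirbp without CML 3 or CML 5 (up to 0.056), and for Rbpms without any 1 CML library or CML-TKI 4 (up to 0.0731). For Raver2 it was above 0.05, and up to 0.121, when any 1 library other than CML-TKI 1 and CML-TKI 2 was left out. Over all alternatives the call held in 12 of 17 for Khdrbs3, 12 of 19 for Cirbp, 11 of 19 for Rbpms and 8 of 19 for Raver2, and with CML 1 to 3 summed the adjusted p was 0.22, 0.146, 0.197 and 0.32. Cirbp was also above 0.05 with limma-voom (0.0615) and after thinning (0.087), and Raver2 with total counts (0.0507) and with no filter (0.0512). Cirbp is itself also known as an hnRNP under another symbol. Of other such genes, 4 are named here outside the rule, after their values were seen, and did not pass. They were Pcbp1 and Pcbp2 (hnRNP E1 and E2, log2 fold changes 0.044 and 0.28), Syncrip (hnRNP Q, 0.068) and Raly (-0.34), with adjusted p of at least 0.364.

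**Figure D4:**
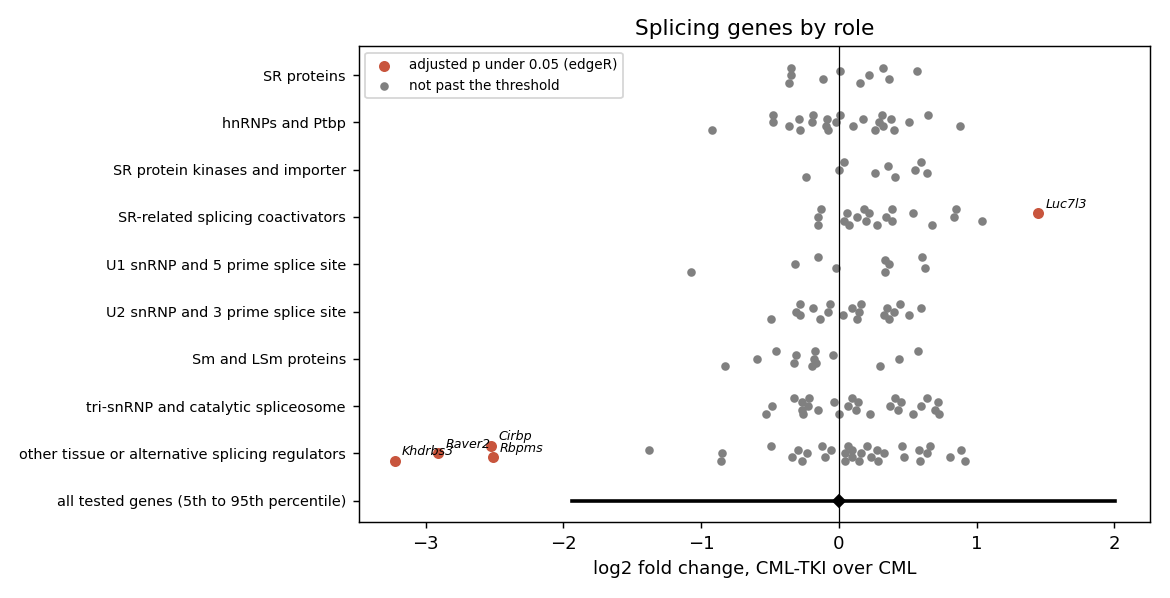
log2 fold change (CML-TKI over CML) of each tested gene of the SR and hnRNP families and of the 7 other splicing lists, with genes past an adjusted p of 0.05 in red and named, above the 5th to 95th percentile (bar) and median (diamond) of all tested genes. The 34 family members lie between -0.92 and 0.88, within the bar from -1.94 to 2, and the 5 called genes lie outside their range.

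The 35 genes are spread over 16 chromosomes of GRCm38, and the closest pair after Hnrnpd and Hnrnpdl is Hnrnpll and Srsf7, 138 kb apart on chromosome 17. These neighbours had log2 fold changes of opposite sign, 0.88 and -0.36, of which neither was past the threshold. Exons of 16 of the 35 genes overlap exons of another annotated gene, and for 13 of them an overlapping gene lies on the opposite strand, which counts without strand cannot separate. Ptbp1, Srsf2, Hnrnpu, Hnrnpk and Hnrnpab are among them, and Hnrnpll, Hnrnph1, Hnrnpdl and Srsf5 are not. In 10 of the 35 genes at least 1 estimated count was more than 0.05 away from a whole number. In Hnrnpf, Ptbp1 and Srsf4 this was so in all 8 libraries, so their estimates are uncertain as well.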

How the data were processed

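RNA of the sorted bone marrow cells was made into Nextera XT libraries, which do not mark strand. The authors aligned paired reads to mm10 with STAR 2.6.1d and quantified RefSeq transcripts in Partek 8.0, and deposited estimated counts for each gene without normalization. These were rounded to whole numbers and fitted with edgeR 4.0.16 in R 4.3.3 (quasi-likelihood test, TMM factors, filterByExpr with a minimum count of 10 and minimum total of 15), using the 4 CML and 4 CML-TKI libraries, with Benjamini-Hochberg adjustment over all 11937 genes tested. Precision is limited by totals of 1041562 to 8620097 counts and by the spread between libraries. Standard errors are the log2 fold change over the root of F. The genes and lists were chosen with earlier results of these data known. Genes were named if they passed an adjusted p of 0.05, if their groups did not overlap, if they are Pkm regulators, or if they were among the 5 highest or lowest per kilobase, and up to 4 called genes were named from each other list. Hnrnpu, Srsf1, Srsf10, Srsf11, Hnrnpd, Rbm3, Raver1 and Son were added after their values were seen. Alternatives were other scalings and filters, DESeq2 1.42.0, limma 3.58.1, thinning, a replicate block and left-out libraries. Positions and exons came from GENCODE M21, and sequences were read from its transcripts.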

Additional observations from a re-analysis of the deposited data

Results flagged for a closer look

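A library of a group of 4 was picked out when its gap to the nearest of the other 3 took up more of the group's whole range than Dixon's 95% limit allows. For the 34 tested genes this was so for 11 of 68 group and gene pairs (16.2%), beside 13.2% over all genes tested, where chance gives about 1 in 20. The pairs share the same 8 libraries and are not independent. In 8 of the 11 the lone library was CML 5, which stood alone in 23.5% of the 34 genes and in 13.3% of all genes. It was high for Hnrnpa0 (218.6 CPM, next library 138.6), Hnrnpl (564.6, next 405.5), Ptbp1 (527, next 387.4) and Srsf9 (32.6, next 15.1). It was low for Hnrnpa3 (146.7, next 238.5), Hnrnpul2 (90.9, next 134), Ptbp3 (410.8, next 661.9) and Srsf11 (60.4, next 139.7). The Ptbp1 and Ptbp3 values lie on opposite sides of the other CML libraries, and without CML 5 the log2 fold change of Ptbp1 was 0.027 and that of Ptbp3 was 0.49. CML 2 was alone for Hnrnpm (78.6 CPM, next 57.3), and CML-TKI 2 for Srsf9 (34.1, next 19.3). CML-TKI 3, the shallowest library, was alone for Hnrnpa1 (5.48 CPM from 5 counts, next 46.2). Srsf12, not tested, had 0.38 CPM in CML-TKI 1 from 2 counts, under the floor of 3, and with the others at 0 any count would have been picked out.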

How the results depend on the processing

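Depth, the small number of libraries and the marker genes that moved with the groups limit these results, and a change of under 2-fold in a single gene was often within the 95% interval. Hnrnpll, Hnrnph1, Hnrnpdl, Srsf5, Ptbp3, Hnrnpa1 and Hnrnpa2b1 kept their direction in all 19 alternatives. Hnrnpll was called in 3 of them and Ptbp3 and Hnrnpdl in 1 each. The sign of values near 0 changed. Srsf3 had a log2 fold change of -0.007 with RLE normalization and with DESeq2, -0.123 with total counts without Rn45s, -0.026 with no filter, 0 with a mean of 10 counts in each group, -0.029 with CML 1 to 3 summed and -0.099 after thinning to the smallest total, and from -0.066 to 0.076 with 1 library left out. Ptbp1 had 0.035 with limma-voom and from -0.227 to 0.027 with 1 library left out. Ptbp2 had 0.032 with CML 1 to 3 summed and from -0.294 to 0.15 with 1 library left out. The median of all genes moved to -0.125 with total counts without Rn45s, to -0.114 with limma-voom and to -0.128 with the replicate block. That of the 34 genes moved to -0.123 with total counts without Rn45s. With 1 library left out it ran from -0.1 to 0.156, and 13 to 21 of the 34 had a log2 fold change below 0.

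Of the 34 SR, hnRNP and Ptbp genes, 2 were called with DESeq2, 1 with limma-voom and 0 to 2 with 1 library left out. The groups did not overlap for 10 of them with CML 1 to 3 summed (28.2% of all genes), 7 with total counts without Rn45s (24.4%), 2 of the 32 still tested after thinning (15.7%) and 4 to 8 with 1 library left out (24.5% to 36.4%). Of the other splicing genes, 12 were called with DESeq2, 8 with limma-voom, 3 with either other filter or with total counts, 2 after thinning, 0 with CML 1 to 3 summed and 1 to 8 with 1 library left out. Of all genes, 2157 were called with DESeq2, 2563 with limma-voom, 548 after thinning, 122 with CML 1 to 3 summed and 505 to 2504 with 1 library left out. The cause of these moves was not tested.

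Libraries with the same number in both groups share only a number. Their deviations from the group means correlated at -0.042, 0.097 and 0.093 for numbers 1, 2 and 3, and library 1 of CML-TKI correlated best with CML 3. With the replicate block on libraries 1 to 3, 193 of all genes, 0 of the other splicing genes and 0 of the 34 genes were called, and Ptbp1 had a log2 fold change of 0.009. Without a block the same libraries, a comparison added after the data were seen, gave 589, 0 and 0 calls and 0.034 for Ptbp1.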
